A study of Mus musculus with 6 samples.

Results

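The genes described here encode the subunits of the 2 protein complexes that hold RNA polymerase II (Pol II) near the start of genes. They are Nelfa, Nelfb, Nelfcd and Nelfe, which encode the negative elongation factor (NELF), and Supt4a and Supt5, which encode the DRB sensitivity-inducing factor (DSIF). The 6 genes were taken by symbol from the 17924 genes of the deposited expression table because they encode these subunits, with earlier results of these data known, and all 6 were among the 16251 genes that passed the filter on low values. RNA sequencing was performed on dermal fibroblasts from the back skin of neonatal (P0) mice after 14 days in adipocyte differentiation medium. The 3 control (CTL) samples came from Pdgfra-Cre mice that were Nelfb fl/wt or wt/wt, and the 3 Nelfb-/- samples came from Pdgfra-Cre mice that were Nelfb fl/fl. All 6 samples therefore carried the Cre, which acts in cells that have used the Pdgfra promoter, a promoter of dermal mesenchymal cells. Which CTL libraries were fl/wt and which were wt/wt was not given, nor were the exons that the floxed allele removes. The libraries are described as biological triplicates.

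Soon after Pol II starts a transcript, DSIF joins it and NELF binds the complex, which holds the polymerase at a promoter-proximal pause. The pause ends when the kinase P-TEFb acts on this assembly: NELF is shed, and DSIF travels on with the polymerase along the gene. Nelfb and Nelfcd proteins form the core that joins Nelfa, which contacts the polymerase, to Nelfe, which binds RNA, and Nelfb is the subunit whose gene was deleted here.

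The parts of the NELF mRNAs that the study itself chose to measure by RT-qPCR are shown first, because they place the assay on the gene that was deleted and on the partner genes. Each amplicon was read from the GENCODE vM21 transcripts (GRCm38), 5′ to 3′ on the sense strand, between the primers of the study, which are in capitals.
Nelfb: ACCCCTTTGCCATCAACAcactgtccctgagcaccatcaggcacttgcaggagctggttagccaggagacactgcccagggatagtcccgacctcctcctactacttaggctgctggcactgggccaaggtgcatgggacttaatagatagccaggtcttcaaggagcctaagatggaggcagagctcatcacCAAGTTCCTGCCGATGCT
Nelfa: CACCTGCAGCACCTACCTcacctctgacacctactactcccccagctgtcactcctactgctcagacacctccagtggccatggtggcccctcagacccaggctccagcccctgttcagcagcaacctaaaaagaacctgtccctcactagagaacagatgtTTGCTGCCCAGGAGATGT
Nelfe: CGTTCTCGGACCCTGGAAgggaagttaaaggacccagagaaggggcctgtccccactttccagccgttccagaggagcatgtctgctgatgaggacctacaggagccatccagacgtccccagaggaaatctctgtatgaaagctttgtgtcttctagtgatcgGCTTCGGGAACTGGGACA
The Nelfb amplicon of 211 bases lies in the coding sequence and crosses exons 7, 8 and 9 of 13, at chr2:25204198-25204277, chr2:25203887-25203982 and chr2:25203456-25203490 on the minus strand. The Nelfa amplicon of 180 bases lies in coding exons 9 and 10 of 11 (chr5:33899282-33899430 and chr5:33899081-33899111, minus strand). The Nelfe amplicon of 182 bases crosses coding exons 4 to 7 of 11 (chr17:34852632-34852661 to chr17:34853808-34853846, plus strand). Exon numbers are those of the longest coding transcript of the GENCODE basic set with both primers. The primer pairs matched 2 of 8 annotated transcripts of Nelfb, 1 of 2 of Nelfa and 5 of 7 of Nelfe. The siRNA sequences given next matched 1 of 2 transcripts of Nelfa and 4 of 7 of Nelfe. The study also lists an siRNA against each of these partner genes, caaccuaaaaagaaccugu for Nelfa and ggcugaaacuaagaacuca for Nelfe, both given here as the sense strand. The Nelfa siRNA target (chr5:33899290-33899308, exon 9) sits inside the amplicon printed above, whereas the Nelfe target (chr17:34852604-34852622, exon 4) lies just before it. No siRNA was used in the 6 libraries, whose values count reads over a whole gene and not over these amplicons.

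Supt4a has a near copy, Supt4b, which the table lists as a processed pseudogene at chr10:31413815-31414165 (minus strand). The first 120 bases of the Supt4a coding sequence and of Supt4b are shown because reads from such a stretch can be hard to assign, with the bases that differ in capitals.
Supt4a: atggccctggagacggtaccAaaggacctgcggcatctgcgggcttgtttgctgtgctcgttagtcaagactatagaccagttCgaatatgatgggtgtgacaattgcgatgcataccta
Supt4b: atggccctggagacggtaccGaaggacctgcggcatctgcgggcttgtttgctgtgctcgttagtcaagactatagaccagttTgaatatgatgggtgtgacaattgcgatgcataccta
Over the 351 aligned bases the 2 sequences had 3 differences, A21G, C84T and T182A (Supt4a base first, counted from the A of the start codon), an identity of 99.1%. Of the 657 stretches of 50 bases in the Supt4a transcript, 181 (27.5%) also occurred in Supt4b, while none of those of the other 5 genes occurred in any other gene's transcripts. The length of 50 bases was chosen here, since the read length was not given in the sources used here, and the Supt4a values below are uncertain for this reason.

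Values are given as reads per 1000000 reads (counts per 1000000, CPM). The libraries held an estimated 17170000 to 29390000 reads, so that 3 reads, the least taken as a signal, corresponded to 0.102 to 0.175 CPM, and every member lay far above this in every library. CTL replicate 3 and Nelfb-/- replicate 1 stood apart from the other libraries of their groups on the second principal component, which held 27.7% of the variance. Markers of adipocytes and fibroblasts were present in all libraries, the 9 adipocyte markers together at 24280 to 40940 CPM in the controls and 16540 to 25110 CPM in Nelfb-/- cells. In the comparison of the groups by limma, a gene was called when its Benjamini-Hochberg adjusted p over all genes tested was at most 0.05 and its change at least 2-fold, which held for 11.2% of the genes tested (1232 higher and 592 lower in Nelfb-/-, or 1014 and 834 after quantile normalization). Of the 6 members, 1 was called, Nelfb.

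Nelfb (ENSMUSG00000013465, chr2:25199712-25211489, minus strand, mm10), the targeted gene, fell to 25.2% of its control level, and every library lay on the side that its label gives. It stood at 17.3, 19.6 and 22.3 CPM in CTL replicates 1 to 3 and at 5.50, 3.90 and 5.55 CPM in Nelfb-/- replicates 1 to 3. The groups lay far apart, and the lowest CTL library was more than 3 times the highest Nelfb-/- library. The means were 19.8 ± 2.54 CPM (SD, n = 3) in CTL and 4.98 ± 0.938 CPM (SD, n = 3) in Nelfb-/-, a 3.96-fold difference. The log2 fold change was -1.99 (SE 0.22, 95% interval -2.50 to -1.47) with an adjusted p of 0.0050 by limma. Genes called lower made up 3.64% of the genes tested, and Nelfb ranked 267 among 16251 from the most reduced fold change.

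Nelfb mRNA was still detected in each of the Nelfb-/- libraries, at 27.9%, 19.7% and 28.1% of the CTL mean. These levels correspond to about 116, 67 and 136 reads, against about 383, 421 and 657 reads in the CTL libraries. The remaining reads may come from any exon, and no value here separates transcripts of a recombined allele from those of cells that kept the gene. In such bulk samples fewer cells with a transcript and less of it per cell cannot be told apart.

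**Figure D1:**
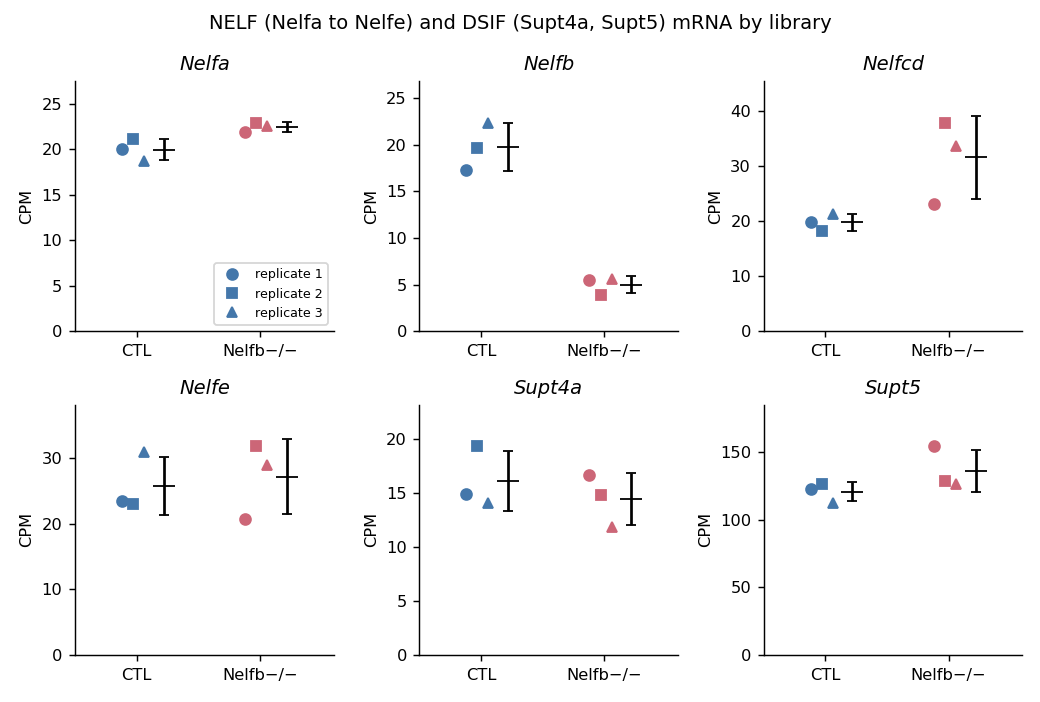
CPM (y axes, from 0) of each NELF and DSIF gene in the 3 CTL (blue) and 3 Nelfb-/- (red) libraries; symbols mark the replicate number, and black bars the mean ± SD. Nelfb is at 3.90 to 5.55 CPM in every Nelfb-/- library and at 17.3 to 22.3 CPM in CTL, while the other 5 genes keep a Nelfb-/- mean of 89.7% to 159% of that of CTL.

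The other core subunit of NELF is Nelfcd (ENSMUSG00000016253, chr2:174415804-174427502, plus strand), which had the next widest difference among the members. Its values were 19.8, 18.3 and 21.4 CPM in the controls and 23.1, 37.9 and 33.7 CPM in Nelfb-/- cells. All 3 Nelfb-/- libraries lay above all 3 CTL libraries, but replicate 1 lay close to the CTL range and the other two far above it. The means of 19.8 ± 1.55 and 31.6 ± 7.61 CPM (SD, n = 3 each) gave a 1.59-fold difference and a log2 fold change of 0.64 (SE 0.21, 95% interval 0.13 to 1.15). The adjusted p of 0.088 by limma missed the threshold. Without Nelfb-/- replicate 1 it was 0.020, with a log2 fold change of 0.85, and leaving out each of the other 5 libraries gave 0.091 to 0.266, with log2 fold changes of 0.50 to 0.70.

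Nelfa (ENSMUSG00000029111, chr5:33897916-33936413, minus strand), which encodes the subunit that contacts Pol II, was measured at 20.02, 21.1 and 18.8 CPM in the controls and at 21.9, 22.9 and 22.5 CPM in Nelfb-/- cells. The Nelfb-/- libraries again lay above the CTL libraries, by a narrow margin. The log2 fold change was 0.17 (SE 0.13, 95% interval -0.14 to 0.48), with an adjusted p of 0.416 by limma, and that interval includes no change and ends below a 1.40-fold increase. Groups that did not overlap were common in this data set, at 38.1% of the genes tested. Nelfb-/- lay above in 22% of the genes tested and below in 16.1% of the genes tested. Such groups were seen for 3 of the 6 members, Nelfa and Nelfcd with Nelfb-/- above and Nelfb with it below.

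Nelfe (ENSMUSG00000024369, chr17:34850391-34856372, plus strand), the gene of the RNA-binding subunit, had 23.4, 23.0 and 30.9 CPM in the controls and 20.8, 31.8 and 28.9 CPM in Nelfb-/- cells. The groups overlapped, with CTL replicate 3 and Nelfb-/- replicates 2 and 3 high and the remaining libraries low. The log2 fold change of 0.07 (SE 0.22, 95% interval -0.45 to 0.58, adjusted p = 0.863 by limma) was smaller than its error, and its sign turned under 3 other scalings of the libraries.

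Supt5 (ENSMUSG00000003435, chr7:28314891-28338746, minus strand), the gene of the large DSIF subunit that P-TEFb phosphorylates, was expressed at 123, 126 and 113 CPM in the controls and at 154, 129 and 126 CPM in Nelfb-/- cells. The groups met at their edges, and only Nelfb-/- replicate 1 stood well above the rest. The log2 fold change was 0.17 (SE 0.14, 95% interval -0.16 to 0.50, adjusted p = 0.436 by limma). Supt4a (ENSMUSG00000020485, chr11:87737552-87743623, plus strand), the gene of the small zinc-finger subunit, had 14.9, 19.3 and 14.1 CPM in the controls and 16.7, 14.8 and 11.8 CPM in Nelfb-/- cells, with overlapping groups. Its log2 fold change was -0.16 (SE 0.21, 95% interval -0.65 to 0.34, adjusted p = 0.637 by limma).

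The near copy Supt4b was listed at 5.94, 6.77 and 4.14 CPM in the controls and at 5.79, 4.54 and 3.39 CPM in Nelfb-/- cells. It took 22.3% to 28.5% of the sum of both genes in the 6 libraries. With both summed, the level was 21.7 ± 3.99 CPM in the controls and 19.0 ± 3.64 CPM in Nelfb-/- cells (SD, n = 3 each). The log2 fold change of the sum was -0.19 (95% interval -0.71 to 0.32, adjusted p = 0.571 by limma), which is near that of Supt4a alone.

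**Figure D2:**
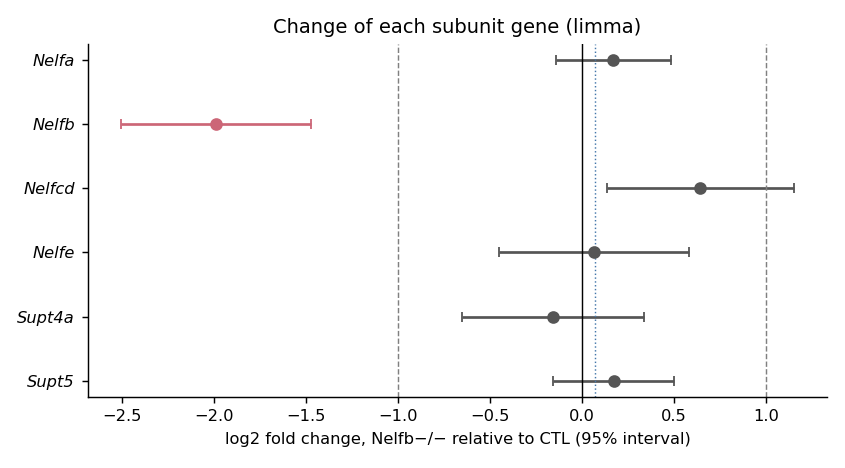
Log2 fold change of Nelfb-/- relative to CTL (x axis) for each gene, with its 95% interval from limma; red marks an adjusted p of at most 0.05, dashed lines a 2-fold change and the dotted blue line the median of all genes tested (0.07). Nelfb lies at -1.99 with its whole interval below a 2-fold decrease, the interval of Nelfcd (0.13 to 1.15) lies above 0, and those of the other 4 genes cross 0.

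Without Nelfb, the median log2 fold change of the members was 0.17, beside 0.07 over all genes tested, and none of these 5 was called. A 2-fold decrease lay outside the 95% interval of each of them, and a 2-fold increase lay outside that of each except Nelfcd. These intervals do not show that the levels were equal.

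Levels of different genes were compared per kb of exon, using the union of the annotated exons of each gene. In CTL cells the order was Supt5 (20.9 ± 1.24 CPM per kb), Supt4a (17.1 ± 2.97), Nelfe (12.4 ± 2.14), Nelfcd (6.88 ± 0.536), Nelfb (5.76 ± 0.739) and Nelfa (5.06 ± 0.295; SD, n = 3 each). The ranges over libraries overlapped for Supt5 and Supt4a, for Nelfcd and Nelfb and for Nelfb and Nelfa. Within each CTL library, however, Supt5 lay above Supt4a (1.35, 1.07 and 1.31 times) and Nelfcd lay above Nelfb, whereas Nelfa and Nelfb changed order between libraries. Per kb of 1 coding transcript in place of the exon union, the lowest CTL library of Supt5 (30.01) lay above the highest of Supt4a (27.4), and the means of Nelfa (7.74) and Nelfb (7.49) changed places. In Nelfb-/- cells the order was Supt5 (23.7), Supt4a (15.3), Nelfe (13.1), Nelfcd (11.0), Nelfa (5.69) and Nelfb (1.45 ± 0.273 CPM per kb), and Nelfb was then the lowest of the 6 in every library. The ranges of Supt4a and Nelfe overlapped there, with Nelfe above Supt4a in replicate 3 (13.9 and 12.6 CPM per kb), and those of Nelfe and Nelfcd overlapped with Nelfe above in each library. Reads listed under Supt4b, 22.3% to 28.5% of the sum of both genes, were not counted with Supt4a in these levels. The place of Supt4a beside Supt5 and Nelfe is therefore uncertain.

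The 4 NELF proteins are found in 1 complex, and the make-up of their mRNAs within a library does not depend on how libraries are scaled to each other. Nelfb made up 17.8%, 20.1% and 19.4% of the summed NELF level (CPM per kb of exon) in CTL and 6.37%, 3.21% and 4.91% in Nelfb-/- cells. The share of Nelfcd was 24.4%, 22.3% and 22.1% in CTL and 31.9%, 37.1% and 35.5% in Nelfb-/- cells, above every CTL library. Nelfe kept the top share, 38.9% to 44.4% in CTL and 39.7% to 43.3% in Nelfb-/- cells, and Nelfa held 14.2% to 18.8% and 16.4% to 22.01%. A share of a sum must increase for some genes when it decreases for another, so each subunit was also set against the others.

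**Figure D3:**
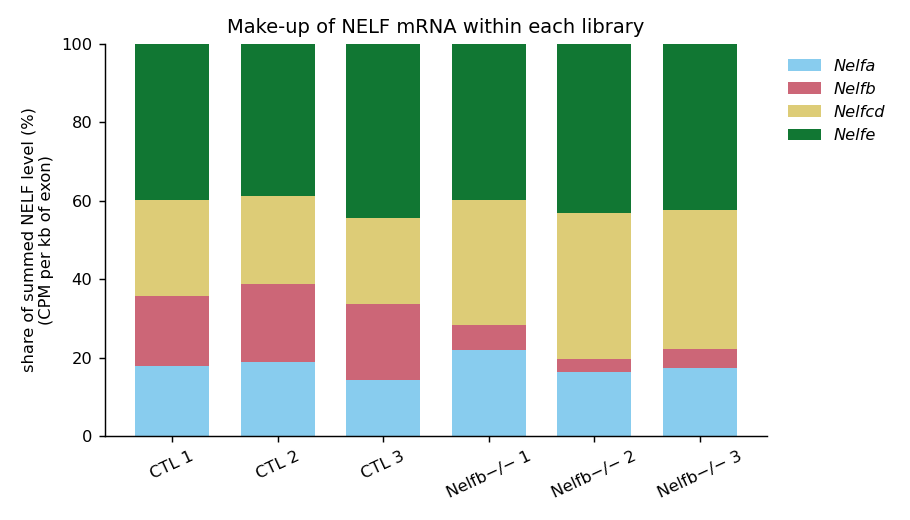
Share of each subunit gene in the summed NELF mRNA level of a library (y axis, percent, from CPM per kb of exon) for the 3 CTL and 3 Nelfb-/- libraries. The Nelfb segment narrows from a mean of 19.1% in CTL to 4.83% in Nelfb-/-, while the Nelfcd segment widens from 22.9% to 34.8%.

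Relative to the mean of the other 3 subunits on the log2 scale, Nelfb stood at -0.28, -0.08 and -0.05 in CTL and at -1.98, -2.94 and -2.33 in Nelfb-/- cells, a difference of -2.28. Nelfcd relative to Nelfa and Nelfe alone stood at -0.13, -0.27 and -0.17 in CTL and at 0.12, 0.49 and 0.40 in Nelfb-/- cells, a difference of 0.52. Nelfe relative to Nelfa and Nelfcd was lower in all Nelfb-/- libraries (difference -0.34), and Nelfa relative to Nelfcd and Nelfe overlapped between the groups (difference -0.18). With 3 libraries against 3 the two-sided exact permutation test cannot go below p = 0.1. That value was reached for Nelfb, Nelfcd and Nelfe (0.125 after Benjamini-Hochberg adjustment over the 5 ratios), and p was 0.4 for Nelfa. The ratio of Nelfe has Nelfcd in its denominator, and the Nelfe level itself overlapped between the groups, so that its lower ratio is not a separate result.

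For DSIF, the log2 ratio of Supt5 to Supt4a was 3.04, 2.71 and 2.99 in CTL and 3.21, 3.11 and 3.41 in Nelfb-/- cells. The groups did not overlap, and the difference of 0.33 again gave the smallest p the exact permutation test allows, 0.1. Per kb of exon, Supt5 was 4.24, 3.83 and 3.004 times Nelfb in CTL and 16.7, 19.6 and 13.5 times Nelfb in Nelfb-/- cells.

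The genes next to the members were read in the same way. Tor4a, which lies 2826 bases from Nelfb, was at 13.0, 8.31 and 14.8 CPM in the controls and at 31.7, 22.5 and 28.0 CPM in Nelfb-/- cells. It rose by 1.21 on the log2 scale (SE 0.26, adjusted p = 0.028 by limma) and was the 1 neighbour called among the 11 that were tested, a share no higher than the 11.2% of all genes tested. The adjusted p of Tor4a was 0.054 to 0.111 by limma when any 1 library other than CTL replicate 3 was left out, with log2 fold changes of 0.96 to 1.34. Tubb4b, on the other side of Nelfb at 10671 bases, overlapped between the groups (log2 fold change 0.50, adjusted p = 0.567 by limma). Skiv2l, whose start lies head to head with that of Nelfe across 181 bases, stood at 46.5 to 51.9 CPM in the controls and 54.3 to 65.4 CPM in Nelfb-/- cells (log2 fold change 0.26, adjusted p = 0.214 by limma). Nsd2, Gm1673, Gnas, Ctsz, Cfb, Mtmr4, Gm44709 and Rps16, the other tested neighbours, had log2 fold changes between -0.42 and 0.27.

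Some members overlap genes on the opposite strand, and the strand setting of the counting was not given in the sources used here. Supt5 shares 433 exon bases (7.51% of its exons) with the antisense gene Gm44709, which was listed at 0.744 to 1.35 CPM. Nelfa shares 60 bases with Nsd2, and Nelfcd shares 10 with Ctsz. Nelfb and Nelfe share no exon base with another annotated gene.

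Across the 6 libraries, the genes with the profile most like that of each member were found by the root mean square difference of the centred log2 values. For Nelfb they were Unc119 (0.130), Cys1 (0.152) and Hlf (0.167), with log2 fold changes of -1.84, -2.28 and -1.96. For Nelfcd they were Ybx1-ps2 (0.0328), Minpp1 (0.0474) and Mtap (0.0598), and for Nelfe they were Thoc3 (0.0236), Eef1d (0.0306) and Pdzd11 (0.0324). Taf6, Tsg101 and Spin1 were nearest to Nelfa, Trmt44, Slc2a8 and Ess2 to Supt4a, and Ap3b1, Mios and Atp9b to Supt5. The members were not each other's nearest genes. The closest pair among them, Nelfa and Supt5, differed by 0.111, and the farthest, Nelfb and Nelfcd, by 1.36.

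Outside NELF and DSIF, 43 genes of Pol II pausing and elongation were listed, of which 42 were in the table and tested. Among these, 3 were called, all lower in Nelfb-/- (Hexim1, Hexim2 and Tcea3), and the median log2 fold change of all 42 was -0.0039. This share of calls is to be read beside the 11.2% of all genes tested that were called in either direction and the 3.64% called lower. By adjusted p alone 6 of the 42 passed, 2 higher and 4 lower, beside 15.8% of all genes tested (9.96% higher, and 947 of the 16251 genes lower).

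Release of NELF needs P-TEFb, made of the kinase Cdk9 and a cyclin T and held inactive in the 7SK particle by Hexim proteins. Hexim1 fell from 72.3, 60.1 and 55.9 CPM in CTL to 19.5, 25.7 and 28.6 CPM in Nelfb-/- cells. The groups were well separated, with a log2 fold change of -1.36 (SE 0.19) and an adjusted p of 0.0088 by limma. Hexim2, a related inhibitor present at a lower level, fell from 5.82, 5.88 and 4.28 to 2.37, 2.10 and 1.47 CPM (log2 fold change -1.42, SE 0.28, adjusted p = 0.022 by limma), and its adjusted p was 0.066 to 0.094 when CTL replicate 1, CTL replicate 2, Nelfb-/- replicate 2 or Nelfb-/- replicate 3 was left out. The other 5 genes of this group did not pass: Cdk9, Ccnt1, Ccnt2 and the 7SK proteins Larp7 and Mepce had log2 fold changes of -0.38 to 0.53. Mepce, lowest of these, had groups that did not overlap and passed by adjusted p after quantile normalization (-0.49, adjusted p = 0.042 by limma).

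In the super elongation complex, which carries P-TEFb to paused polymerase, none of the 8 tested genes was called with the libraries scaled to their totals. Its reader subunits Mllt1 and Mllt3 passed by adjusted p with changes under 2-fold in opposite directions. Mllt1 was at 41.6, 30.7 and 38.6 CPM in the controls and 57.1, 74.3 and 72.3 CPM in Nelfb-/- (log2 fold change 0.88, adjusted p = 0.022 by limma), and Mllt3 at 19.2, 21.3 and 17.8 against 12.9, 9.31 and 8.49 CPM (-0.94, adjusted p = 0.029 by limma). Leaving out CTL replicate 1, CTL replicate 2, Nelfb-/- replicate 2 or Nelfb-/- replicate 3 gave an adjusted p of 0.058 to 0.105 for Mllt1 and of 0.097 to 0.119 for Mllt3 (limma). With the libraries scaled by median of ratios, quantiles or the upper quartile, Mllt3 passed both thresholds (log2 fold change -1.01, -1.09 and -1.01, adjusted p 0.024, 0.026 and 0.021 by limma). The scaffold Aff4 was at 530, 588 and 362 CPM in the controls and 329, 241 and 247 CPM in Nelfb-/- cells, with groups that did not overlap and an adjusted p of 0.061 by limma (0.047 with upper-quartile scaling, 0.019 without CTL replicate 3 and 0.046 without Nelfb-/- replicate 1).

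None of the 8 genes of the PAF1 complex and its partners passed, with log2 fold changes of -0.37 to 0.64. Of the 13 Pol II subunit genes, 12 did not pass, and the small subunit gene Polr2l did by adjusted p alone, at 11.3, 10.9 and 6.98 CPM in the controls and 15.6, 19.0 and 18.3 CPM in Nelfb-/- (log2 fold change 0.88, adjusted p = 0.048 by limma). Leaving out any 1 library other than CTL replicate 3 gave Polr2l an adjusted p of 0.054 to 0.170 by limma, and with all 6 libraries it was 0.068, 0.105 and 0.069 under median-of-ratios, quantile and upper-quartile scaling. Polr2a, the gene of the largest subunit, had a log2 fold change of -0.31 (adjusted p = 0.479 by limma). Tcea3, a TFIIS gene whose product helps stalled polymerase to resume, fell from 2.93, 2.29 and 2.21 CPM to 0.427, 0.466 and 0.694 CPM (log2 fold change -2.15, SE 0.33, adjusted p = 0.011 by limma, and 0.055 without CTL replicate 1), while Tcea1, Tcea2 and the 3 cap-binding genes did not pass.

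**Figure D4:**
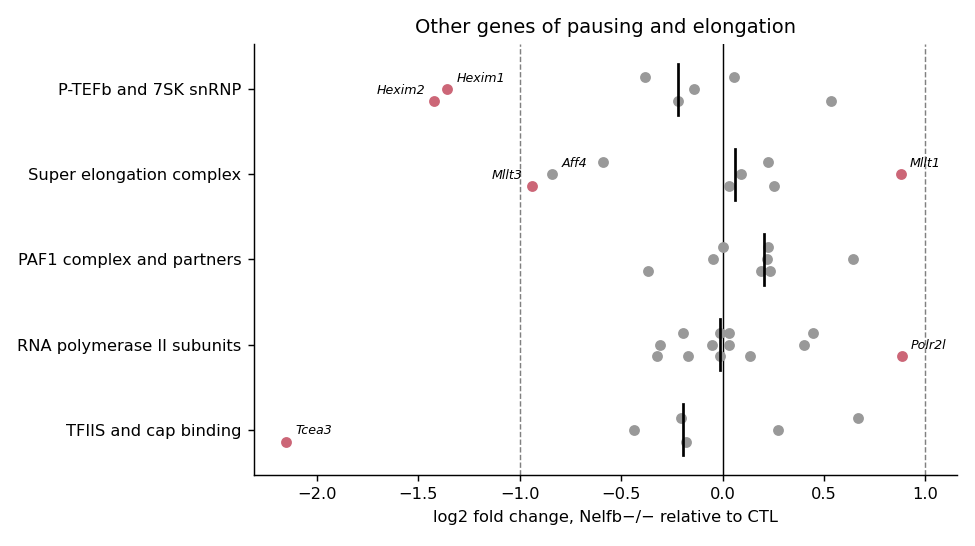
Log2 fold change of Nelfb-/- relative to CTL (x axis) for the 42 tested genes of pausing and elongation by group (y axis); each point is a gene, red where the adjusted p is at most 0.05, black bars are group medians and dashed lines a 2-fold change. Only Hexim1, Hexim2 and Tcea3 lie in red beyond a 2-fold change, and the group medians lie between -0.22 and 0.21.

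Marker genes of other cells moved with the groups and are given beside the Nelfb values. All 6 macrophage markers were higher in Nelfb-/- libraries, 5 of them called, with a summed level of 130 to 516 CPM in the controls and of 4412, 1275 and 2166 CPM in Nelfb-/- replicates 1 to 3. In the same order, Nelfb stood at 5.50, 3.90 and 5.55 CPM in Nelfb-/- replicates 1 to 3. The CTL replicates 1 to 3 had macrophage sums of 516, 278 and 130 CPM and Nelfb values of 17.3, 19.6 and 22.3 CPM. The 4 skeletal muscle markers summed to 6.81 to 9.08 CPM in CTL libraries and 40.5 to 65.2 CPM in Nelfb-/- libraries, and the 3 that were tested rose. Myod1, which was below the filter on low values and not tested, was listed at 0, 0.140 and 0 CPM in CTL replicates 1 to 3, at or below the level of 3 reads, and at 0.711, 0.349 and 0.245 CPM in Nelfb-/- replicates 1 to 3, above it. The 4 melanocyte markers summed to 48.6 to 73.7 CPM in CTL libraries and 48.4 to 163 CPM in Nelfb-/- libraries, a sum that in CTL was nearly all Mitf (47.2 to 72.4 CPM, log2 fold change -0.65, not called). The other 3 were called higher, among them Tyrp1, at 0, 0 and 0.0680 CPM against 35.0, 11.5 and 20.03 CPM, and Dct, at 0.0902, 0.280 and 0.442 CPM against 28.9, 12.1 and 18.8 CPM. The 4 keratinocyte markers summed to 1.89 to 2.45 CPM in CTL libraries and to 3.46 to 12.9 CPM in Nelfb-/- libraries, with 1 called, and none of the 4 endothelial markers (6.70 to 18.5 CPM in sum over all libraries) was called. The part of these cells in the remaining Nelfb mRNA, or in the values of the other subunits, was not tested.

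Fibroblast and preadipocyte markers summed to 4159, 3540 and 14330 CPM in the controls and 7353, 22000 and 24250 CPM in Nelfb-/- cells, with all 8 higher and 1 (Dlk1) called, and none of the 9 adipocyte markers was called (8 lower, 3 of them with groups that did not overlap, and a median log2 fold change of -0.51). CTL replicate 3 and Nelfb-/- replicates 2 and 3, the libraries with the highest of these fibroblast sums, were also the 3 highest in Nelfe. Nelfcd had the order of these sums among the CTL libraries, and Nelfb-/- replicate 1 was the lowest Nelfb-/- library in both. Nelfb-/- replicates 2 and 3 had the opposite order in Nelfcd and in the sums. Pdgfra, whose promoter drives the Cre, was at 317, 219 and 444 CPM in the controls and 476, 499 and 509 CPM in Nelfb-/- cells (log2 fold change 0.66, adjusted p = 0.145 by limma). The part of the cell make-up in these values was not tested.

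**Figure D5:**
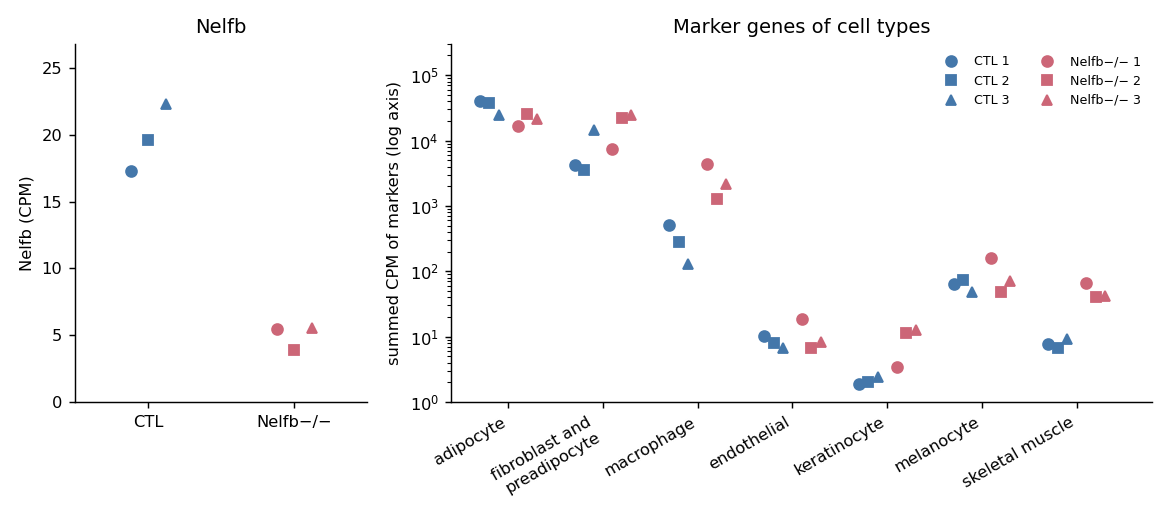
Left, Nelfb CPM (from 0) by library; right, summed CPM (log axis) of the marker genes of each cell type in the 3 CTL (blue) and 3 Nelfb-/- (red) libraries, with symbols for replicate numbers 1 (circle), 2 (square) and 3 (triangle). The macrophage and skeletal muscle sums of the Nelfb-/- libraries (1275 to 4412 and 40.5 to 65.2 CPM) lie above all CTL libraries (130 to 516 and 6.81 to 9.08 CPM).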

How the data were processed

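The authors deposited 1 table of normalized values for 17924 mm10 genes, counts per 1000000 reads (CPM) with 0.0001 added. The processing notes of the submitters name STAR (version 2.7) and Partek (9.0.20.0202). The counting rule and strand setting were not given in the sources used here. The table has no column of the authors' own comparisons. After subtraction of the offset, depth was estimated from the steps between low values, of which 69.9% to 72.8% were whole numbers of reads within 0.02, too few for a test on counts. Values were set in reads at the geometric mean depth of the libraries and tested as log2(reads + 1) with limma 3.58.1 (R 4.3.3, abundance trend) where the mean was at least 10 reads. Fold changes of low genes are understated on this scale. The p-values of limma set the difference between the groups against the spread between the 3 libraries of a group, moderated over all genes tested. Within-library ratios were compared by exact permutation tests (SciPy). The fit was also run on counts simulated independently with the same dispersion for all genes, which do not hold the shared differences between libraries seen here. Positions are those of the table and equal GENCODE vM21, and primer and siRNA sequences come from the study's list of oligonucleotides.

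The 6 members, the gene lists and the rule for named genes (the members, their near copy, neighbours, nearest profiles, Pdgfra, Gapdh, and listed elongation genes that were called or did not overlap at 1.5-fold or more) were chosen with earlier results of these data known. Alternatives were other pseudocounts (0.5 and 5 reads), filters, scalings, variance models, a replicate block and leaving out each library. Summing Supt4a and Supt4b was added after seeing the data.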

Additional observations from a re-analysis of the deposited data

How the results depend on the processing

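The call of Nelfb held in 10 of 11 other settings and in all 6 fits that left out 1 library (log2 fold change -2.08 to -1.82, adjusted p 0.0079 to 0.031 by limma). It was lost when libraries were scaled to Gapdh, the RT-qPCR control of the study (-1.91, adjusted p 0.209), a scaling under which only 538 genes were called and Hexim1, Hexim2, Tcea3 and Tor4a were not. Gapdh itself was at 195, 185 and 603 CPM in the controls and 145, 418 and 309 CPM after deletion. The direction of Nelfe reversed to -0.0029 with median-of-ratios scaling, -0.0395 with quantile normalization and -0.0035 with the upper quartile, and leaving out 1 library gave -0.06 to 0.25 (-0.009 without CTL replicate 2, -0.0588 without Nelfb-/- replicate 2). The cause was not tested. The other 4 members kept their direction and were not called in any setting, also with Supt4b added to Supt4a.

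The number of genes called was 1824, and 426 (without Nelfb-/- replicate 3) to 2479 (without CTL replicate 3) when 1 library was left out; leaving out CTL replicate 1 gave 871, CTL replicate 2 gave 759, and Nelfb-/- replicate 2 gave 945. The elongation genes called ranged from 1 (without CTL replicate 1) to 5 (without CTL replicate 3 or Nelfb-/- replicate 1). Quantile normalization moved the median log2 fold change of all genes from 0.07 to -0.07 and the split of higher to lower calls from 1232 and 592 to 1014 and 834. Libraries with the same replicate number deviated from their group means with correlations of 0.515, -0.395 and 0.518. For libraries with different numbers the correlations were -0.631 to 0.536. The labels do not state a pairing, and 3 libraries per group cannot settle whether the samples were paired. With the replicate block, 2175 genes were called and the count of members stayed at 1. About 67 to 136 reads stand behind each Nelfb-/- value of Nelfb.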
